A study of Mus musculus with 2 samples.

Results

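The 6 genes described here encode the giant filament proteins of striated muscle and their relatives: Ttn (titin), Neb (nebulin), Nebl (nebulette), Nrap, Obsl1 and Speg. They were chosen by symbol, each symbol matched 1 Ensembl gene in the deposited transcript tables, and they are 6 of 55536 annotated genes. Total RNA was sequenced from gastrocnemius, the large calf muscle, of 2 adult female B6CASTF1/J mice of 8 to 10 months, which are hybrids of the B6 and CAST strains. Each animal gave 1 library from 300 ng of RNA, reduced in ribosomal RNA and spiked with ERCC standards, and neither animal carried a stated treatment or engineered allele. The labels number them animal 1 (replicate 1 here) and animal 3 (replicate 2), and give them 1 donor identifier but a tissue sample each. They form 1 group, so no test between groups exists, no p-value is given, and each error is the SD of the 2 animals (n = 2).

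The sarcomere, the contractile unit of striated muscle, is built around these proteins. Titin spans from the Z disc to the M band, acts as a molecular spring and is made of immunoglobulin and fibronectin domains, and its spring is lengthened or shortened by alternative splicing. Nebulin runs along the thin actin filament in skeletal muscle, nebulette is its shorter relative of the heart Z disc, and Nrap is a relative that carries nebulin repeats and gathers at sites where myofibrils are assembled or end. Obsl1 is a small relative of the obscurin giants found at the M band, where it binds titin and myomesin, and Speg is a protein kinase of the myosin light chain kinase family that sits at the junctions between transverse tubules and sarcoplasmic reticulum.

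The sequences below are the places where the annotated forms of 3 of the genes part. The results on splicing are deposited shares from models that divide reads among forms, and reads over these places were not counted here. They were read from the GENCODE M21 transcripts (GRCm38, the assembly also called mm10), are coding sequence, and are written 5′ to 3′ along the transcript. Exons are numbered from the 5′ end of the transcript named. In the first set, the last 30 bases of exon 45 of Ttn-205, an exon that Ttn-201 and Ttn-202 share, stand in lower case, and the first 30 bases of the exon that follows stand in capitals. That next exon is exon 46 of Ttn-205 (chr2:76906254-76906532, minus strand, 279 bases), exon 45 of Ttn-201 (chr2:76907308-76909953, 2646 bases) and the last exon of Ttn-202 (chr2:76913944-76920463, 6520 bases).
Ttn-205: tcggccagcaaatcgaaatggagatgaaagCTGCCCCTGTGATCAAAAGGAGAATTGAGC
Ttn-201: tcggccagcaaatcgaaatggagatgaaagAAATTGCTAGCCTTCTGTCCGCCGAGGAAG
Ttn-202: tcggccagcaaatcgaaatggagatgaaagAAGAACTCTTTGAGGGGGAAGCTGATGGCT

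The second set shows exon 12 of Nrap-202 (chr19:56374364-56374468, minus strand, 105 bases or 35 codons) in capitals, with 15 bases of each neighbouring exon. Nrap-201 lacks this exon and joins its neighbours directly.
Nrap-202: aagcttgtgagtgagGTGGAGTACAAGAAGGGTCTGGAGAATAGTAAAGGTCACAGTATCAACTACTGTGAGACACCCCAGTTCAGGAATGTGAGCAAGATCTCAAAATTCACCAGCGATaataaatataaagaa
Nrap-201: aagcttgtgagtgagaataaatataaagaa

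The last set is a pair of alternative exons near the 3′ end of Neb, exon 148 of Neb-202 (chr2:52153056-52153148, minus strand) and exon 143 of Neb-203 (chr2:52156355-52156447, minus strand). Each has 93 bases, of which 81 are alike, and the 12 positions that differ are in capitals.
Neb-202: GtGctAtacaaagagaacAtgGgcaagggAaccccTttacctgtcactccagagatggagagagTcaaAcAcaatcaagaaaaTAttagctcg
Neb-203: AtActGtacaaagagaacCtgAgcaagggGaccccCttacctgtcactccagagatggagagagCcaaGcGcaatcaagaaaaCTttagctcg

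Replicate 1 held 42714567 expected counts, the estimated reads per gene, and replicate 2 held 43421652. Levels per length are given as TPM (transcripts scaled for length and library), scaled to 1 total per library over all features. The 7SL RNA genes took 27.0% of that total in replicate 1 and 33.6% in replicate 2, which lowers every other TPM value by a different amount in the 2 libraries. Transcripts were quantified in 2 ways by the authors. The first quantification came from transcriptome alignments, as did the gene tables, and the second came directly from reads. Markers of fast fibres, the main fibre type of this muscle, were high (10 of 10 reached 1 TPM in each animal, called detected here, and their levels summed to 116844 and 102802 TPM). Schwann cell markers differed between the animals: the 5 listed genes summed to 54.5 TPM in replicate 1 and 12.1 TPM in replicate 2, and each of the 5 differed by more than 2-fold. In bulk tissue, fewer cells of a type and less RNA per cell cannot be told apart.

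The levels of the 6 genes ran over more than 3 orders of magnitude, from titin and nebulin in the lead to nebulette near 0. Ttn (ENSMUSG00000051747.14, chr2:76703980-76982547, minus strand) stood at 4594 TPM in replicate 1 and 3685 TPM in replicate 2. Neb (ENSMUSG00000026950.17, chr2:52136647-52378474, minus strand) stood at 3865 and 3316 TPM. Titin was above nebulin in each animal, by 1.19-fold in replicate 1 and 1.11-fold in replicate 2, a ratio of 1.15 ± 0.055. The difference of their means (549 TPM) was smaller than the sum of their standard deviations (1030 TPM), but the 7SL share moves both genes together. With the 7SL genes left out the difference was 778 TPM against a sum of 747 TPM. Over nuclear protein-coding genes alone it was 1183 against 963 TPM. The outcome of this comparison, which ignores that both genes were measured in the same libraries, thus depended on the denominator. The ratio of titin to nebulin within each library does not, since both are divided by the same total.

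Nrap (ENSMUSG00000049134.15, chr19:56320035-56390037, minus strand) followed at 367 and 349 TPM. Speg (ENSMUSG00000026207.16, chr1:75375297-75432320, plus strand) stood at 144 and 132 TPM. Obsl1 (ENSMUSG00000026211.17, chr1:75479310-75506452, minus strand), whose 3′ end lies 46989 bases beyond the 3′ end of Speg, stood at 17.8 and 15.9 TPM. Every step below nebulin exceeded the sum of the neighbours' standard deviations. In TPM, nebulin was 10.0 ± 0.73 times Nrap, Nrap was 2.60 ± 0.064 times Speg, and Speg was 8.21 ± 0.16 times Obsl1. Obsl1 was 21.9 times Nebl in replicate 1 and 158.6 times in replicate 2. These ratios depended on the quantification: in the second, nebulin was 8.60 ± 0.64 times Nrap, Nrap 2.00 ± 0.073 times Speg, and Speg 12.1 ± 1.23 times Obsl1.

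Nebl (ENSMUSG00000053702.16, chr2:17343909-17731464, minus strand) held only 26 expected counts in replicate 1 and 18 in replicate 2. The exact Poisson 95% intervals of these counts, which cover counting error only, were 17.0 to 38.1 and 10.7 to 28.4 and overlapped. Its TPM was nevertheless 0.81 in replicate 1 and 0.10 in replicate 2. In replicate 1 the short non-coding models Nebl-208 and Nebl-209 held 4.00 and 1.44 of the counts and 52.3% and 27.0% of the gene's TPM, and in replicate 2 both were at 0. Another non-coding model, Nebl-211, held 3.00 counts in replicate 1 and none in replicate 2. The only complete coding form with counts in the first quantification was Nebl-201, a form of 7 exons and 810 coding bases that begins at a distant upstream exon, at 16.6 and 18.0 counts and 0.10 TPM in each animal. Nebl-202, the form of 28 exons with 3042 coding bases that carries the full row of nebulin repeats, had no counts in either animal in the first quantification, where a count of 0 allows up to 3 counts, and 4.58 and 0 in the second. Heart markers were likewise low: 2 of 7 were detected, their summed level was 6.99 TPM in each animal, and the atrial light chain Myl7 stood at 0.07 and 0 TPM.

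**Figure D1:**
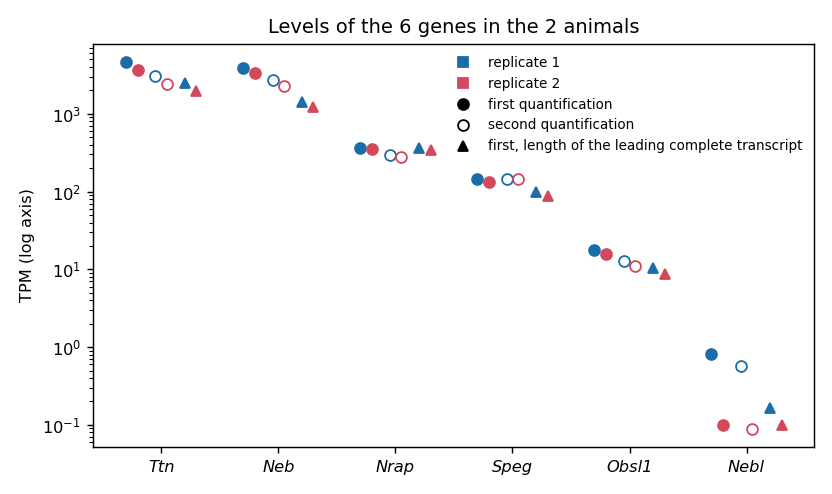
TPM of each gene (log axis) in replicate 1 (blue) and replicate 2 (red). Filled circles are the first quantification and open circles the second. Triangles are the first quantification's TPM recomputed with the effective length of the gene's leading complete transcript and not rescaled to the library total. Ttn and Neb lie close together at the top under either quantification and apart by the triangles, while Nebl lies lowest under each.

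Set against all genes, the giants took far more of the reads than of the molecules counted per length. Titin alone held 7008746 expected counts in replicate 1 and 6334929 in replicate 2, and ranked 1 by count but 15 and 16 by TPM among 22015 nuclear protein-coding genes. Its share of counts was 35.7 times its share of TPM in replicate 1 and 39.6 times in replicate 2. Nebulin, at 882878 and 873469 counts, held 2.07% and 2.01% of all counts but 0.386% and 0.332% of TPM. It ranked 5 and 4 by count and 18 by TPM in both animals.

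The smaller members showed the same kind of gap in lesser degree. Nrap held 0.128% and 0.138% of counts and 0.0367% and 0.0349% of TPM, and ranked 47 and 43 by count but 129 and 127 by TPM. Speg held 0.0695% and 0.0700% of counts, 4.84 and 5.30 times its share of TPM, and ranked 83 by count in both animals but 386 and 387 by TPM. Obsl1 held a count share 2.17 and 2.29 times its share of TPM. For Nebl the fold was 0.751 in replicate 1 and 4.15 in replicate 2, on the few counts given above. Summed over the 6 genes, the share of counts was 18.7% and 16.8% (17.7 ± 1.32%), the share of TPM was 0.899% and 0.750% (0.824 ± 0.105%), and the first was 21.6 ± 1.16 times the second. That fold carries the weight of the 7SL genes in the TPM total, and it was 15.7 with those genes left out and 12.4 over nuclear protein-coding genes alone.

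**Figure D2:**
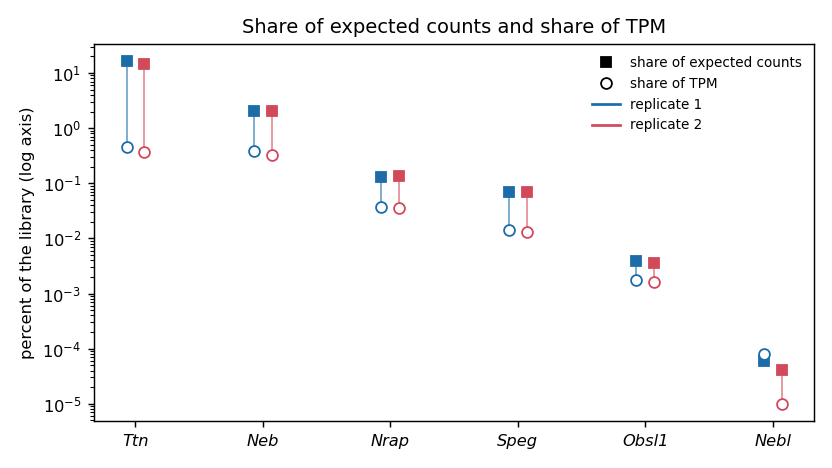
Percent of all expected counts (squares) and percent of all TPM (open circles) held by each gene, on a log axis, in replicate 1 (blue) and replicate 2 (red). The line between the symbols is longest for Ttn, whose count share is 35.7 and 39.6 times its TPM share, and short for Obsl1; for Nebl in replicate 1 the TPM share is the higher.

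Because TPM divides counts by length, a gene's fold of count share over TPM share follows its effective length by definition. The lengths given here thus restate those folds and are not a separate trait. Titin's deposited gene length, an average over transcripts weighted by their abundance, was 54001 ± 649 bases. This was the largest of 10529 genes detected, whose median was 2267 bases. Neb came at 8265 bases (rank 139), Speg at 7357 (rank 215), Nrap at 5425 (rank 773) and Obsl1 at 3297 (rank 2954). The next 9 genes by this length were Zfhx3, Ahnak, Ryr1, Mdn1, Rnf213, Xist, Dync1h1, Kmt2d and Dst, from 16463 down to 13916 bases. Of those 9 only Ryr1, the calcium release channel of skeletal muscle, exceeded 1% of counts (462337 and 440443 counts, a mean of 1.05%). Dst, a cytoskeletal linker, came next among them with a mean of 0.152%.

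The deposited lengths of titin and nebulin were well below those of their full transcripts, and many annotated models of both genes are fragments. GENCODE M21 lists 25 Ttn transcripts, of which 6 have a complete reading frame and 15 are marked as open at an end. It lists 13 Neb transcripts, 3 complete and 5 open-ended. In the first quantification the complete Ttn forms held 96.2 ± 0.018% of the gene's counts but 58.9 ± 0.49% of its TPM, and the open-ended models held 3.76 ± 0.015% of counts but 40.2 ± 0.40% of TPM. For Neb the complete forms held 87.6 ± 0.20% of counts and 38.5 ± 0.21% of TPM. Obsl1 went the same way, with 75.7 ± 2.06% of counts and 44.1 ± 2.64% of TPM in complete forms. Nrap did not, with 99.9% of both in complete forms.

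Since TPM adds a short fragment as 1 molecule, these models raise the summed level of a gene. An alternative chosen after seeing the data divided each gene's counts by the effective length of its leading complete transcript instead. Titin then came to 2459 and 1939 and nebulin to 1405 and 1213. These values keep the scaling of the deposited TPM and were not rescaled to the library total, so only ratios between the genes are read from them. Titin was then 1.67 ± 0.11 times nebulin, against 1.15 ± 0.055 times with the deposited lengths and 1.09 ± 0.055 times in the second quantification. Nebulin was then 3.70 ± 0.26 times Nrap, against 10.0 ± 0.73. On that scale the order of the 6 genes was the same and the step from nebulin to titin was wider.

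**Figure D3:**
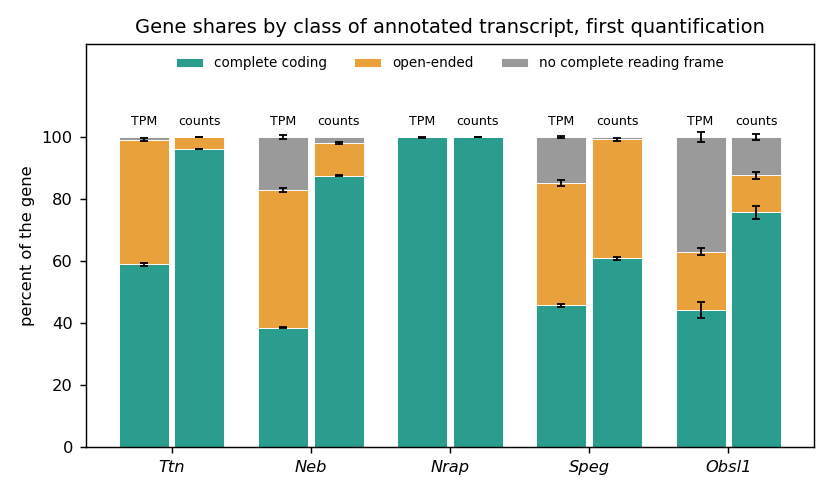
Mean percent of each gene's TPM (left bar) and expected counts (right bar) held by complete coding transcripts (green), open-ended coding models (orange) and transcripts with no complete reading frame (grey) in the first quantification, with SD over the 2 animals as bars at the upper edge of each segment over 3%. Complete forms hold 96.2% of Ttn counts but 58.9% of Ttn TPM, while for Nrap both bars are almost wholly green.

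Titin reads were divided among forms that part after exon 45. Ttn-205, of 313 exons and 100401 coding bases, continues into the long run of exons that encodes the N2A region and the extended spring of skeletal titin. It led the first quantification with 31.6% and 31.2% of titin TPM and 59.0% and 59.3% of its counts. Ttn-204, whose coding sequence has the same length and shares all but a few bases with that of Ttn-205 (22 genomic positions are coding in only 1 of the pair), held 3.88% and 3.44% of TPM. The second quantification instead gave Ttn-204 26.2% and 24.8% and Ttn-205 25.6% and 26.0% of TPM. The split between these forms was thus not settled by the data, and they are best read together, at 35.0 ± 0.59% of titin TPM and 65.9 ± 0.30% of counts in the first quantification and 51.3 ± 0.70% and 80.2 ± 0.013% in the second.

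Ttn-201, of 192 exons and 80658 coding bases, enters its own exon of 2646 bases at the junction printed above and later skips an unbroken run of 121 exons, exons 47 to 167 of Ttn-205, which hold 22251 bases. It is built like the N2B form known from heart, which has a shorter spring. Of the 25 annotated transcripts only Ttn-201 and Ttn-203 hold the 2646-base exon. Together they held 19.0% and 18.9% of titin TPM and 28.6% and 28.9% of titin counts in the first quantification (2004480 and 1830037 counts), nearly all of it in Ttn-201. In the second quantification the pair held 12.8% and 12.6% of TPM and 16.3% of counts in each animal. The summed heart markers stood at the 6.99 TPM given above. These shares come from a model that divides reads of shared exons among forms, and no count of reads over the junctions or over the 2646-base exon was used here.

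Ttn-202 has 45 exons, the last of which is its own exon of 6520 bases, and is built like the short form called novex-3, which stops before the spring is complete. It held 4.76% and 5.03% of titin TPM in the first quantification and 3.28% and 3.33% in the second, or 103075 and 100069 counts against 62968 and 58949. In each quantification the 2 animals were close to each other, and the quantifications were farther apart than the animals.

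The other titin models above 5% of the gene were fragments. Ttn-215, an open-ended model of the first 12 exons with 2159 bases, held 22.2% and 23.1% of titin TPM in the first quantification but 3.12% and 4.33% in the second. It did so on 0.842% and 0.890% of titin counts in the first. Ttn-212, of 8 exons and 609 bases, held 6.36% and 6.79% of TPM in the first and 14.5% and 15.2% in the second. Ttn-218, of 51 exons and 10229 bases, held 2.62% and 2.34% in the first and 7.02% and 6.66% in the second. For each of these 3 fragments the quantifications differed more than the animals did.

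Nebulin was led by Neb-202, the longest complete form with 157 exons and 21456 coding bases, in both quantifications and both animals. It held 20.5% and 20.8% of nebulin TPM and 56.3% and 56.8% of nebulin counts in the first quantification. Neb-203, of 152 exons, lacks exons 82 to 85 of Neb-202 (4 exons, 729 bases) and held 6.38% of TPM in each animal, or 16.7% and 16.6% of counts. Neb-201, of 74 exons and 9132 coding bases, starts far downstream and held 11.5% of TPM in each animal, or 14.4% and 14.3% of counts.

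The printed pair of 93-base exons divides these forms. With identical exon bounds, the exon of Neb-202 occurs also in Neb-208, and the exon of Neb-203 occurs also in Neb-201. Any model that holds either sequence within an exon of other bounds was not counted in these groups. Forms with the exon of Neb-202 held 56.6% and 57.1% of nebulin counts, and forms with the exon of Neb-203 held 31.1% and 30.9%. By TPM the shares were 22.4 ± 0.34% and 17.9 ± 0.014%. In the second quantification they were 59.6 ± 1.37% and 30.2 ± 1.34% of counts, so the forms with the exon of Neb-202 held the larger share in both animals by each measure.

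The open-ended and non-coding nebulin models carried few reads and much TPM. Neb-210, of 11 exons and 1027 bases, held 16.4% and 15.7% of nebulin TPM on 1.86% and 1.78% of its counts. Neb-209, Neb-206 and Neb-213 held from 8.65% to 10.5% of TPM each on 1.83% to 4.13% of counts. Near the 5′ end, the non-coding Neb-204 held 14.9% and 15.5% of TPM in the first quantification, where the open-ended Neb-212, which ends at the same base, was at 0. The second quantification gave replicate 1 to Neb-212 (5.96%, with Neb-204 at 0.006%) and replicate 2 to Neb-204 (6.03%, with Neb-212 at 0.23%). A difference of that kind between the animals was not seen in the first quantification of the same libraries.

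**Figure D4:**
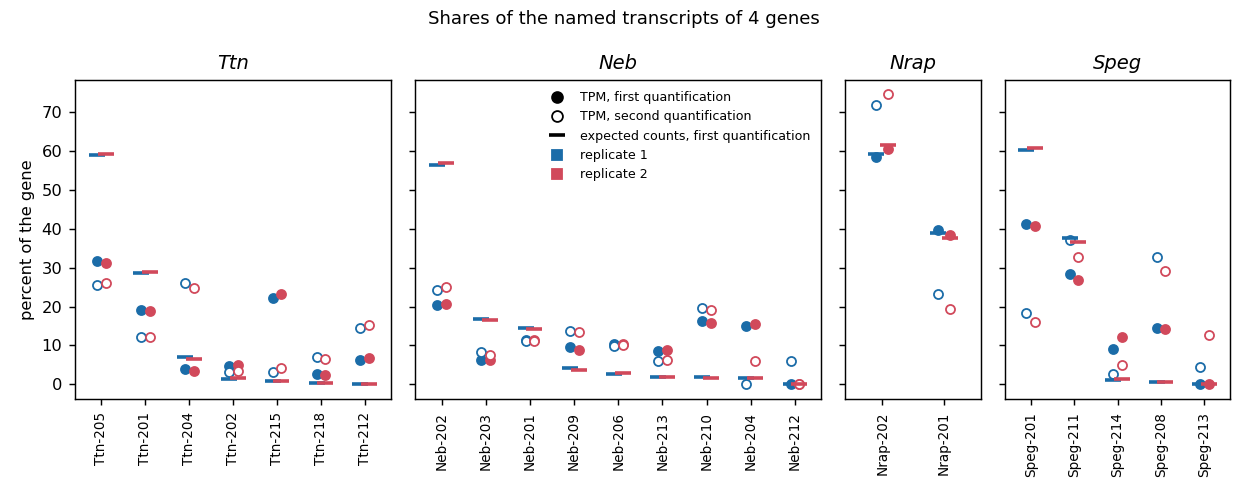
Percent of each gene held by its named transcripts, in replicate 1 (blue) and replicate 2 (red), ordered within a gene by mean share of counts. Filled circles are TPM and short bars expected counts in the first quantification, and open circles are TPM in the second. Within the first quantification the animals lie within 3 percentage points of each other, within the second Neb-204, Neb-212 and Speg-213 lie farthest apart, Ttn-204, Ttn-215, Speg-201 and Speg-208 differ between quantifications, and fragments such as Neb-210 have a high TPM share on a low count share.

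Nrap divided almost wholly between 2 complete forms that differ by the printed exon of 35 codons. Nrap-202, which includes the exon, held 58.4% and 60.5% of Nrap TPM, and Nrap-201, which skips it, held 39.6% and 38.3%. All 3 annotated forms with the exon together held 60.0 ± 1.07% of TPM in the first quantification and 74.0 ± 1.19% in the second. Inclusion was thus above skipping in both animals and both quantifications, while its size differed between quantifications by more than between animals. Because both forms have nearly the same length, their shares of counts (59.2% and 61.3% for Nrap-202) lay close to their shares of TPM.

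Speg was divided between annotated models whose listed starts lie at different places along the gene. Speg-201, a complete form with 41 exons and 9786 coding bases, starts at the gene's first exon and held 41.3% and 40.6% of Speg TPM in the first quantification. Speg-211, a model of 39 exons that is open at its 5′ end and is listed from farther downstream, held 28.2% and 26.7%. The second quantification reversed their order, with 18.4% and 16.0% for Speg-201 and 37.0% and 32.6% for Speg-211. In counts the same reversal was seen, from 60.1% and 60.7% against 37.6% and 36.5% to 34.5% and 34.0% against 63.4% and 63.2%. The leading form of Speg therefore depended on the quantification and not on the animal. Because Speg-211 is open at its 5′ end, its true start is unknown, and the split is not read as use of different start sites.

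Short Speg models between those listed starts took TPM on few reads. Speg-208, a nonsense-mediated decay model of 463 bases, held 14.4% and 14.1% of TPM in the first quantification on 211 and 218 counts, and 32.8% and 29.1% in the second on 393 and 401. Speg-214 held 9.11% and 12.1% in the first and 2.64% and 4.89% in the second. Speg-213 was at 0 in the first and held 4.36% and 12.8% in the second, on 26.6 and 89.5 counts.

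Obsl1 was led by Obsl1-202, a complete form of 20 exons and 5412 coding bases, which held 45.2% and 39.7% of Obsl1 TPM and 76.4% and 71.6% of its 1644 and 1579 counts. In the second quantification it led too, with 49.8% and 42.3% of TPM. The retained-intron model Obsl1-213 followed at 15.5% and 19.1%, on 26.3 and 33.1 counts, and fell below 8% in the second quantification (7.54% and 6.80%). Obsl1-205, Obsl1-207 and Obsl1-211 held from 5.51% to 13.8% each in the first quantification, and Obsl1-208 passed 5% only in the second quantification of replicate 2 (5.39%). Over the 6 genes, 3 (Neb, Nrap and Obsl1) had the same leading transcript by TPM in both animals and both quantifications, and 4 (those 3 and Nebl) had it by counts.

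Genes that overlap the 6 in the annotation carried almost no reads. Of 10 such genes, 7 were at 0 in both animals, among them the antisense Gm13938, which overlaps Ttn over 63933 bases, Gm13522 (Neb), Gm13324 and Mir6419 (Nebl), Gm22095 (Neb), Gm17197 (Nrap) and Gm15178 (Speg). Habp2, which overlaps the end of Nrap, Tmem198, which overlaps Obsl1 over 6174 bases, and Gm13521, a pseudogene on the strand of Neb, had 1 expected count in each animal. Whether the counting used the strand of reads is not given in the sources used here, so reads of an antisense partner and of its gene cannot be told apart where both exist.

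Between the animals the 5 genes with enough reads to be compared lay close together. The log2 ratio of replicate 2 to replicate 1 was computed after TMM scaling of library sizes where the mean expected count reached 50. Of the 5 genes that passed this minimum none differed by 2-fold or more, against 1.39% of the 11127 genes tested (155 genes). Nebl, on 26 and 18 counts, was below the minimum, and with no minimum its log2 ratio was -0.50. Among the 5, titin was lower in replicate 2 by the most, with a log2 ratio of -0.17, and 61.2% of tested genes had a ratio as small or smaller. Neb had -0.04 and Obsl1 -0.08. Nrap had 0.10 and Speg 0.01, and both turned negative under spike-in scaling (-0.02 and -0.11), which moved the median of all genes to -0.12.

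TPM gave another picture of the same pair of libraries: all 6 genes had a lower TPM in replicate 2, where the 7SL genes took more of the total. Over nuclear protein-coding genes alone, Nrap and Speg were instead higher in replicate 2 (761 and 806 TPM for Nrap, 298 and 305 TPM for Speg). Obsl1 was at 36.8 and 36.6 TPM on that scale, while Ttn (9524 and 8514 TPM), Neb (8012 and 7661 TPM) and Nebl (1.68 and 0.231 TPM) stayed lower in replicate 2. The Schwann cell markers given above differed between these animals, and slow fibre markers were higher in replicate 2 (7 of 7 genes, median log2 ratio 0.29, summed level 1839 and 1930 TPM). Their part in the members' ratios was not tested.

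Lists of partner genes, chosen with earlier results of these data known, give the surroundings of the 6. Titin partners at the Z disc, the N2A region and the M band were detected in 19 of 19 cases, with a median of 391 and 377 TPM in the 2 animals. The highest were Actn3, the alpha-actinin of fast fibres that anchors titin at the Z disc (4923 and 4080 TPM), Mybpc2, the fast myosin-binding protein C (2610 and 2291 TPM), and Tcap, the cap of titin's amino end (1874 and 1788 TPM). None of the 19 differed by 2-fold between the animals, and their median log2 ratio was 0.09, with 14 above 0, beside a median of -0.002 over all genes tested.

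Partners of nebulin and Nrap were detected in 18 of 18 cases and led by Acta1, the skeletal actin of the thin filament (23611 and 20056 TPM), Des, the intermediate filament desmin (994 and 904 TPM), and Xirp2, an actin-binding repeat protein of muscle attachment sites (573 and 486 TPM). None of the 18 passed 2-fold, with 9 above 0 and a median of -0.01. Partners and kin of Obsl1 and Speg were detected in 12 of 14 cases. They were led by Ryr1 (1095 and 910 TPM), the kinase Mylk4 (899 and 826 TPM) and Mylk2, the myosin light chain kinase of skeletal muscle (333 and 307 TPM), and none of the 12 tested passed 2-fold, with a median of 0.05 and 8 above 0.

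Regulators of splicing of long muscle transcripts were detected in 8 of 8 cases. The highest were Mbnl1 (270 and 288 TPM) and Mbnl2 (141 and 128 TPM), the muscleblind proteins, and Rbfox1 (101 and 97.7 TPM). None of the 8 passed 2-fold, 5 were above 0, and their median log2 ratio was 0.07. The share of Ttn-201 and the share of Nrap-202 each differed between the animals by less than 3 percentage points in either quantification.

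**Figure D5:**
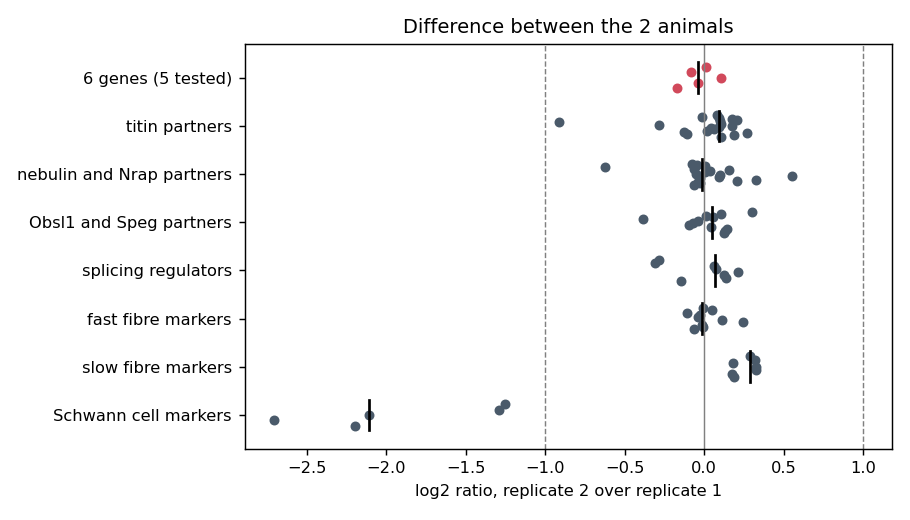
Log2 ratio of replicate 2 over replicate 1 for the 5 tested genes of the 6 (red) and for the partner and marker lists (grey), 1 point per gene, with the median of each row as a black bar and 2-fold as dashed lines. The 5 genes lie between -0.17 and 0.10, no partner gene reaches a dashed line, and all 5 Schwann cell markers lie below -1.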

How the data were processed

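Total RNA-seq of 2 gastrocnemius libraries was analysed. The authors deposited expected counts (estimated reads, with reads that fit several features shared out) and TPM per gene and transcript, percent shares of transcripts within a gene, and a second table of estimated counts and TPM per transcript. The deposited descriptions name genome mm10 and annotation GENCODE M21. The programs used are not given in the sources at hand. In the first quantification the deposited effective length was the length minus 100 bases, and in the second minus 246 to 248 for transcripts over 1000 bases.

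From these, shares of the library, reads per length and transcript shares were computed. Open-ended transcripts are those the annotation marks as having an unknown start or end, and complete ones carry a reading frame with both ends. Expected counts were rounded for edgeR 4.0.16 (R 4.3.3), scaled by TMM, and compared as log2 CPM with a prior count of 2. On simulated data for this comparison, 99.5% of 200 genes changed 4-fold passed 2-fold, among 11127 genes, and 1 unchanged gene did. The simulation gave every gene a coefficient of variation of 0.1 beyond counting noise. In the real pair 155 genes passed 2-fold, so the simulation checks the computation and not the rate of calls in these data. Counts of the 2 libraries differed beyond sampling noise (a chi-square of 29.1 per degree of freedom, 11158 features), so they were kept as 2 samples. Alternatives were spike-in scaling, size factors of DESeq2 1.42.0, other minimums and prior counts, posterior means, other denominators, the second quantification and each animal left out. Python 3.11.15, pandas 2.3.3, NumPy 2.4.6, SciPy 1.17.1 and matplotlib 3.10.9 were used. Members and lists were chosen with earlier results of these data known. Named were the 6 genes, the 3 highest genes of each partner list, the 10 longest detected genes, genes that overlap a member and transcripts with at least 5% of a gene by TPM. Marker lists, Myl7, Ttn-203, Neb-208 and Nebl-202 were named beside them, after their values were seen. The other marker lists were fibroblast (5 genes), endothelium (4), smooth muscle and pericyte (4) and blood and immune (4). They summed to 94.0, 40.5, 70.0 and 113 TPM in replicate 2 and to 132, 48.3, 95.6 and 153 TPM in replicate 1. None of their genes that reached the minimum count passed 2-fold, with 3 tested for smooth muscle and pericyte and 3 for blood and immune. Allele of origin was not analysed here.

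No test between groups was possible because the 2 animals form a single group, and genes were compared within each library as ratios only.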

Additional observations from a re-analysis of the deposited data

How the results depend on the processing

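Over nuclear protein-coding genes alone the summed share of counts was 22.3%, the summed share of TPM 1.80% and their fold 12.4, and TPM was 9019 for Ttn, 7836 for Neb, 783 for Nrap, 302 for Speg and 36.7 for Obsl1. Without the 7SL genes the summed share of TPM was 1.18% and the fold 15.7. In the second quantification the summed share of TPM was 0.569% and the fold 32.4, and TPM was 2722 for Ttn, 2499 for Neb, 289.97 for Nrap and 12.0 for Obsl1. Posterior means gave Nebl 1.01 TPM. The length of the leading complete transcript, added after seeing the data, gave 2199 for Ttn, 1309 for Neb, 93.6 for Speg and 9.65 for Obsl1. These are TPM values not rescaled to the library total. Leading-transcript shares in the second quantification were 25.8% for Ttn-205, 24.7% for Neb-202, 73.0% for Nrap-202 and 17.2% for Speg-201. As shares of counts they were 59.1% for Ttn-205, 56.5% for Neb-202, 74.0% for Obsl1-202 and 60.4% for Speg-201, and posterior means gave Ttn-205 29.985%. Among complete coding transcripts only, also added after seeing the data, they were 53.3%, 53.6%, 96.1% and 89.5% for Ttn-205, Neb-202, Obsl1-202 and Speg-201. The number of genes past 2-fold rose from 155 to 579 with a minimum mean count of 10 and to 2577 with no minimum. Apart from the lower minimums, the moves followed from a changed denominator, length or split of reads. Alternative values of the main results numbered 82, those of Nebl and those with an animal left out not counted. Of these, 47 stayed within 1 SD, within the 2-fold call or, for counts of genes, within 1.5 times, and 35 moved. Most of the 47 were log2 ratios of members, which lay between -0.29 and 0.12 and so far from 2-fold, or counts of genes past 2-fold. Most shares of the library, folds, TPM levels and transcript shares moved beyond 1 SD, and most of those that stayed were posterior means. The SD of Nebl exceeded its mean TPM, so its values staying within 1 SD say nothing of stability. None of the 5 members tested passed 2-fold under any scaling tried. With 2 animals, leaving out either cannot move a mean beyond 1 SD, so it says nothing of stability. Nebl rests on 26 and 18 counts, and shares of transcripts are limited by reads that several forms share.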
